A study of Mus musculus with 6 samples.

Results

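The 44 genes described here mark astrocytes and quiescent neural stem cells, and were taken by name from a table of 18614 genes measured by RNA sequencing of the mouse subventricular zone (SVZ), the strip of tissue along the lateral ventricle that keeps neural stem cells in the adult brain. They were divided by known role into 27 astrocyte function genes and 17 stem cell genes. All 44 were found, and all 44 passed the filter on low counts, as did 15126 genes in all. Total RNA came from the SVZ of Zhx2+/+ mice (3 wild-type libraries, WT 1 to 3) and of mice labelled Zhx2Δ/Δ (3 libraries, KO 1 to 3). The labels used here give no strain, sex, age or further treatment for either group, do not name the cells in which the deletion acts, and are silent on whether each library is a separate animal. The p-values therefore reflect the spread among these 6 libraries only, and that spread may be technical.

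The genotype tag of KO 1 names ZHX2, while those of KO 2 and KO 3 name ZHX3 and ZHX4. Zhx2 itself was not lower in these libraries: it averaged 39.5 ± 1.17 CPM for WT and 60.4 ± 5.84 CPM for KO-labelled (SD, n = 3 in each group), with an adjusted p of 0.163 in edgeR and 0.00178 in DESeq2. CPM stands for a gene's counts relative to the library total after scaling between libraries. These values are summed over the whole gene, and the deleted part was not examined, so they do not settle the genotype. Because the tags differ and Zhx2 RNA was not lower, directions below compare libraries by label alone, KO-labelled minus WT. Libraries held between 17037103 and 17685856 estimated counts, so that 3 counts, the limit for a gene not seen, correspond to at most 0.176 CPM, counting error only. The lowest value of any of the 44 genes was 2.81 CPM, for Tnc in WT 1.

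Adult SVZ stem cells are themselves a kind of astrocyte. They carry the astrocyte filament protein GFAP, glutamate transporters and metabolic enzymes, and in their quiescent state they share most of their transcripts with the mature astrocytes of the striatum and septum around them. Some genes classed here as stem cell genes, such as Sox9 and Fabp7, are astrocyte genes too, so the classes do not fully separate the cell types. The stem cell class includes transcription factors (SOX2, the orphan nuclear receptor encoded by Nr2e1, nuclear factor I proteins). It also includes filaments such as nestin, and surface and matrix proteins that hold stem cells in the niche. Several of these proteins are also found in the ependymal cells that line the ventricle, and the choroid plexus, which floats in the ventricle beside the SVZ, makes large amounts of clusterin and cystatin C. In bulk tissue, fewer cells of a type and less RNA per cell cannot be told apart.

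None of the 44 genes passed the test between the groups. The edgeR quasi-likelihood test with Benjamini-Hochberg adjustment over all genes gave adjusted p values between 0.415 (Sox9) and 0.997 (Hepacam), and it called 0% of the 15126 genes tested. DESeq2 also called 0 of the 44, where it called 311 of the 16740 genes to which it gave an adjusted p (1.86%), and limma-voom called 0 of the 44. At an unadjusted p under 0.05, 2 genes were higher in the KO-labelled libraries (Aldh1l1 and Tnc, 4.55% of the 44, against 2.68% of all genes) and 1 was lower (Sox9, 2.27%, against 6.39%). Groups did not overlap in 1 gene with higher KO-labelled values (Aldh1l1, 2.27% of the 44, against 8.00% of all genes) and in 1 with lower ones (Sox9, 2.27%, against 8.74%). Counts of this size are no larger than those of the whole table in 3 of these 4 measures, and the fourth rests on 2 genes.

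**Figure D1:**
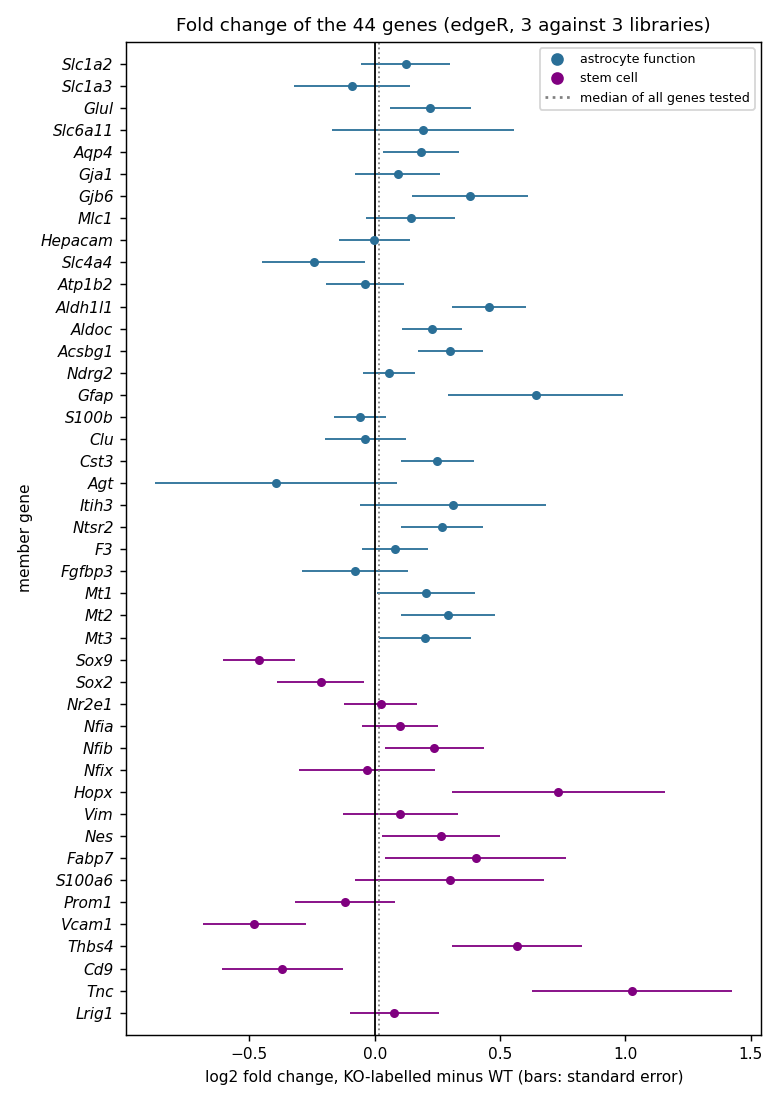
Log2 fold change of each of the 44 genes, KO-labelled minus WT, from edgeR, with bars of 1 standard error; astrocyte function genes are blue, stem cell genes purple, and the dotted line is the median of all 15126 genes tested (0.018). Most points lie between -0.5 and 0.5, and the values reach from -0.48 (Vcam1) to 1.03 (Tnc).

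The fold changes leaned upward without any gene passing. Of the 44 genes, 30 had a positive log2 fold change (68.2%), against 53.4% of all genes, and the median was 0.13 against 0.018. Such a lean was not particular to them. All 15 microglia, 13 striatal neuron and 12 general neuron markers were positive, with medians of 0.315, 0.306 and 0.256. Choroid plexus (0 of 20 positive), ependymal (1 of 20) and oligodendrocyte markers (1 of 13) went the other way. Among the 27 astrocyte function genes 19 were positive and the median was 0.18; among the 17 stem cell genes 11 were positive and the median was 0.10. These medians differed with the libraries included. WT 2 was the lowest of the 6 libraries for 18 of the 27 astrocyte function genes, against 23.6% of all genes, and without it the astrocyte median was 0.042. KO 3 was the lowest library for 8 of the 17 stem cell genes, against 12.6% of all genes, and without it the stem cell median was 0.22, while without KO 2 it was 0.035.

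**Figure D2:**
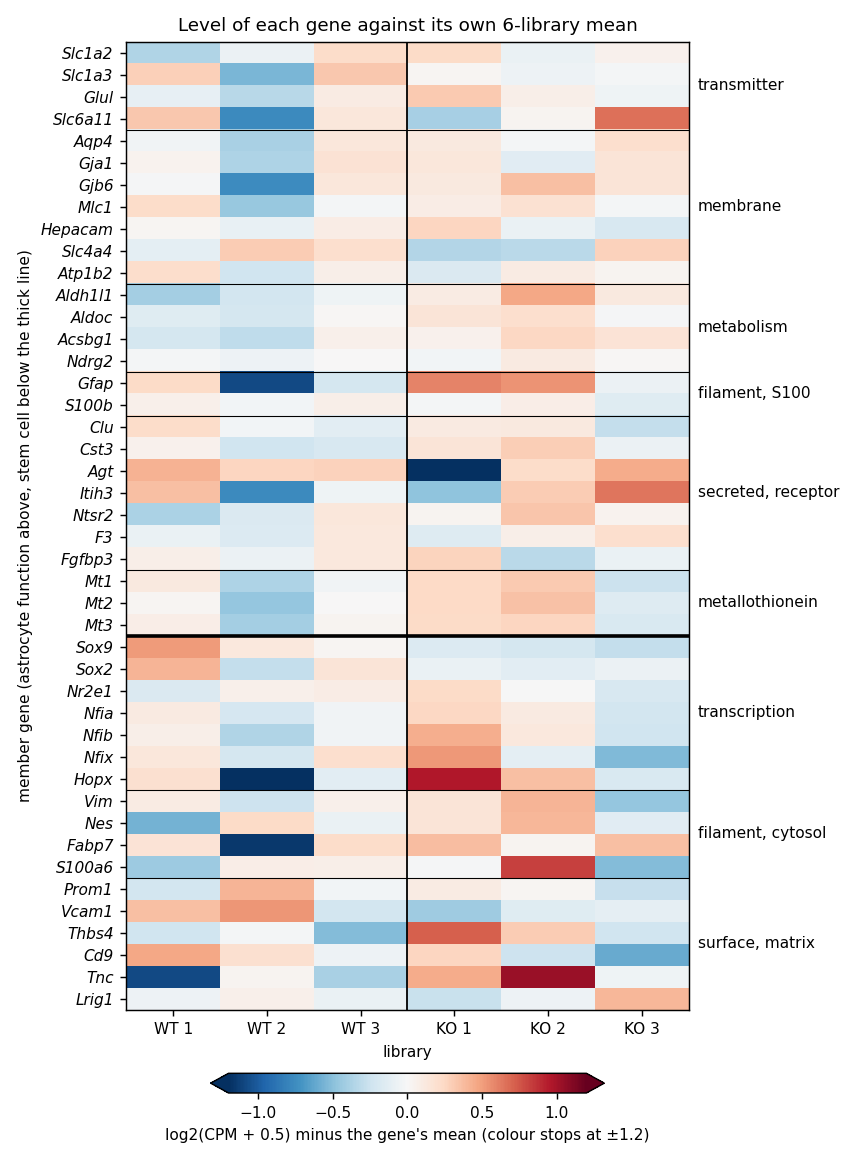
Level of each of the 44 genes (rows, by role) in each library (columns), as log2(CPM + 0.5) minus the gene's own mean over the 6 libraries; red is above and blue below that mean. WT 2 is blue for most astrocyte function genes, and KO 3 is blue for many stem cell genes below the thick line.

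The contrast between the classes did not separate the groups. The mean log2(CPM + 0.5) of the astrocyte function genes was 7.91, 7.58 and 7.94 in WT 1 to 3, and KO 1 to 3 had 7.88, 8.01 and 7.94. That of the stem cell genes was 5.24, 5.14 and 5.21 in WT 1 to 3, and KO 1 to 3 had 5.47, 5.41 and 5.05. The astrocyte mean minus the stem cell mean within a library was 2.67, 2.44 and 2.73 in WT and 2.42, 2.60 and 2.88 in the KO-labelled libraries. The 3 KO-labelled values span the 3 WT values on both sides. It averaged 2.62 ± 0.15 for WT and 2.63 ± 0.23 for KO-labelled (SD, n = 3 in each group), so that the group means differed by 0.016, far less than the spread between libraries. No p is given, since the genes were proposed with earlier results of these data known.

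**Figure D3:**
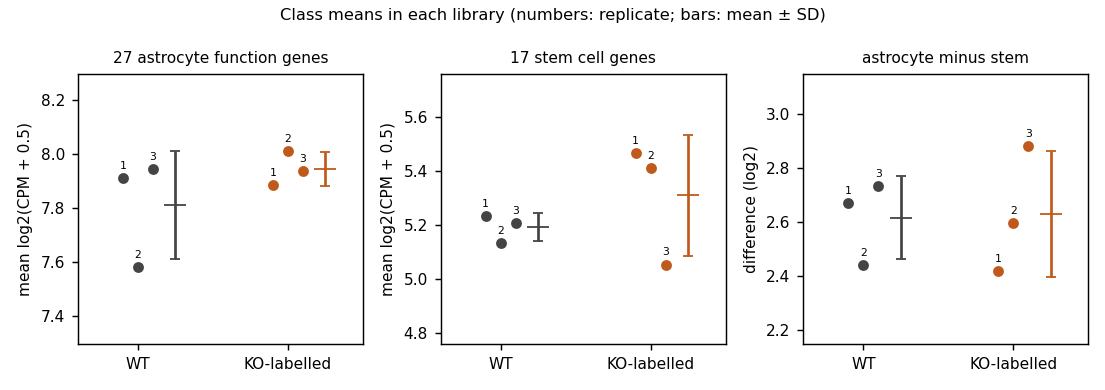
Mean log2(CPM + 0.5) of the 27 astrocyte function genes (left) and the 17 stem cell genes (middle), and the difference between them (right), in each library; points are libraries numbered by replicate, bars the mean ± SD of 3, and each axis covers 1 log2 unit. WT 2 is the lowest library on the left (7.58), KO 3 the lowest in the middle (5.05), and the groups overlap in all 3 panels.

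Levels between genes were compared per length, in FPKM (counts relative to transcript length and library total), as deposited and averaged over the 6 libraries. The astrocyte function genes had a median of 91.0 FPKM, from Fgfbp3 at 3.32 to Cst3 at 1420 FPKM. The stem cell genes had a median of 11.3 FPKM, from Tnc at 1.17 to Cd9 at 69.6 FPKM. The genes used to recognise stem cells were thus mostly the less abundant of the 44. Within a group, the 44 genes varied somewhat more than the average gene: the highest library was 1.40 times the lowest at the median in WT and 1.33 times in KO-labelled libraries, against 1.27 and 1.25 for all genes tested.

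Transmitter clearance is the best known task of astrocytes, and none of its 4 genes passed the test. Slc1a2, the main glutamate transporter of mature astrocytes, was at 1698, 2077 and 2538 CPM in WT 1 to 3 and 2557, 2065 and 2253 CPM in KO 1 to 3. Slc1a3, a second glutamate transporter that stem cells also carry, was at 847, 474 and 866 CPM in WT 1 to 3 and 705, 666 and 684 CPM in KO 1 to 3. WT 2 was the low library for Slc1a3 and not for Slc1a2, so that the ratio of their FPKM values ran from 0.763 in WT 1 to 1.67 in WT 2, with 1.38, 1.18 and 1.26 in KO 1 to 3. Both extremes of that ratio were WT libraries. The enzyme glutamine synthetase, from Glul, was at 1767, 1509 and 2024 CPM in WT 1 to 3 and 2363, 1995 and 1825 CPM in KO 1 to 3. The GABA transporter gene Slc6a11 was at 358, 168 and 315 CPM in WT 1 to 3 and 217, 293 and 451 CPM in KO 1 to 3. Slc6a11 differed by 2.13 times within WT and 2.08 times within the KO-labelled libraries, more than between the group means. The log2 fold changes of the 4 genes were between -0.090 (Slc1a3) and 0.22 (Glul), with adjusted p between 0.724 and 0.931.

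Of 7 genes for channels, junctions and other membrane proteins of astrocytes, 4 had positive and 3 negative log2 fold changes, and every one had overlapping groups. The water channel gene Aqp4 was at 177, 139 and 200.0 CPM in WT 1 to 3 and 198, 179.9 and 209 CPM in KO 1 to 3. The gap junction gene Gja1 was at 232, 174 and 254 CPM in WT 1 to 3 and 247, 204 and 251 CPM in KO 1 to 3. Its partner in astrocyte gap junctions, Gjb6, was at 63.0, 37.3 and 70.0 CPM in WT 1 to 3 and 69.2, 81.5 and 70.8 CPM in KO 1 to 3. In all 3 genes WT 2 was the lowest library and the other 5 lay within a narrower range. Without WT 2 the log2 fold change of Gjb6 was 0.14, against 0.38 with it.

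Mlc1 and Hepacam encode membrane proteins that sit together at astrocyte contacts and endfeet. Mlc1 was at 269.7, 169 and 228 CPM in WT 1 to 3 and 246, 262 and 228 CPM in KO 1 to 3. Hepacam was at 174, 161 and 182 CPM in WT 1 to 3 and 205, 162 and 149.7 CPM in KO 1 to 3. Hepacam had a log2 fold change of -0.002 (SE 0.14), the smallest of the 44 in size. The sodium bicarbonate cotransporter gene Slc4a4 was at 203, 272 and 253 CPM in WT 1 to 3 and 172, 175 and 266 CPM in KO 1 to 3. Atp1b2, for a subunit of the sodium pump, was at 1095, 797 and 992 CPM in WT 1 to 3 and 835, 1012 and 963 CPM in KO 1 to 3. For Slc4a4 the low libraries were KO 1 and KO 2, while for Atp1b2 the lowest was WT 2 and KO 1 came next.

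The 4 metabolic genes all had positive log2 fold changes, with a median of 0.27 and none past the test. Aldh1l1, the folate enzyme gene widely used to label astrocytes (NCBI gene 107747, chr6:90550768-90599171 in GRCm38), was at 48.9, 56.0 and 63.1 CPM in WT 1 to 3 and 69.8, 90.0 and 70.8 CPM in KO 1 to 3. Every KO-labelled library lay above every WT library, and the means were 56.0 ± 7.09 CPM for WT and 76.8 ± 11.4 CPM for KO-labelled (SD, n = 3 in each group). Its log2 fold change of 0.46 (SE 0.15) had an unadjusted p of 0.0179 and an adjusted p of 0.429 in edgeR, and it was 0.33 without KO 2, the highest library. Its 2 transcripts in the table took unequal shares by the authors' estimates, the main one holding between 57.7% and 64.9% of the gene's counts in WT and between 72.2% and 80.5% in KO-labelled libraries.

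The other metabolic genes had smaller log2 fold changes. Acsbg1, for an acyl-CoA synthetase, was at 131, 122 and 158 CPM in WT 1 to 3 and 158, 179.7 and 169.8 CPM in KO 1 to 3. Aldoc, the brain form of the glycolytic enzyme aldolase, was at 733, 703 and 819.5 CPM in WT 1 to 3 and 903, 936 and 802 CPM in KO 1 to 3. Ndrg2, a gene of the NDRG family used as an astrocyte marker, was at 853, 834 and 871 CPM in WT 1 to 3 and 851, 934 and 875 CPM in KO 1 to 3. In Acsbg1 and Aldoc WT 3 lay inside the KO-labelled range, and the log2 fold changes were 0.30 (SE 0.13) and 0.23 (SE 0.12). Ndrg2 was the steadiest of the 44 within WT, where its highest library was 1.04 times its lowest.

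Gfap encodes the filament protein of astrocytes and of SVZ stem cells (NCBI gene 14580, chr11:102887336-102897200 in GRCm38, minus strand). It was at 395, 159 and 289.5 CPM in WT 1 to 3 and 508, 487 and 320.5 CPM in KO 1 to 3. WT 2 was lowest and KO 1 and KO 2 highest, and KO 3 lay below WT 1, so the groups overlapped. Its means were 281 ± 118 CPM for WT and 439 ± 103 CPM for KO-labelled (SD, n = 3 in each group), giving a log2 fold change of 0.64 (SE 0.35) with an edgeR adjusted p of 0.642, or 0.35 without WT 2. The calcium-binding protein gene S100b, found in mature astrocytes and in ependymal cells, was at 156, 146 and 157 CPM in WT 1 to 3 and 147, 158 and 135 CPM in KO 1 to 3. S100b covered a narrow range in which no group stood apart.

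The table splits Gfap over 3 transcripts. Besides the main form it holds GFAP delta, a form with another end of the protein that is described as enriched in SVZ stem cells. By the authors' estimates the delta transcript was at 6.50, 2.66 and 5.22 CPM in WT 1 to 3 and 11.2, 10.3 and 10.2 CPM in KO 1 to 3. The lowest KO-labelled value exceeded the highest WT value. As a share of the gene's counts it was 1.65%, 1.68% and 1.80% in the WT libraries, against 2.20%, 2.12% and 3.18% in the KO-labelled ones. The share was also above the WT range in each KO-labelled library, although the 2 forms differ only at their ends and the split between overlapping transcripts is an estimate. The gene as a whole overlapped between groups, as given above. The delta values were found by looking through the transcripts of all 44 genes and were not tested.

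Over the 24 genes with more than 1 transcript in the table, 84 transcripts had a mean of at least 30 counts. Of these, 9 (10.7%) were higher in every KO-labelled library than in any WT library, against 6.79% of 28321 such transcripts in the whole table, and 6 (7.14%) were lower, against 7.41%. Transcripts of a gene share its reads and are not independent. An example is Slc4a4, whose transcript lacking a short exon near the end of the coding sequence, which gives another end of the protein, was at 929, 408 and 379.5 estimated counts in WT 1 to 3 and 0, 0 and 28.4 estimated counts in KO 1 to 3. Another Slc4a4 transcript lay the other way, at 82.9, 85.4 and 104 CPM in WT 1 to 3 and 116, 108 and 142 CPM in KO 1 to 3, and the gene as a whole overlapped between groups. In WT the first Slc4a4 transcript followed the order of the choroid plexus markers, highest in WT 1 and lowest in WT 3. The part of those cells in its values was not tested.

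Secreted proteins and receptors gave 4 positive and 3 negative log2 fold changes among 7 genes. Clu, for the extracellular chaperone clusterin, was at 1743, 1467 and 1376 CPM in WT 1 to 3 and 1613, 1624 and 1230 CPM in KO 1 to 3. Cst3, for the protease inhibitor cystatin C and the most abundant of the 44 per length, was at 1127, 920.1 and 952 CPM in WT 1 to 3 and 1209, 1327 and 1030 CPM in KO 1 to 3. Both are also transcribed in the choroid plexus, whose markers were far lower in the KO-labelled libraries. The part of those cells in the Clu and Cst3 values was not tested. The groups overlapped in both genes. Their log2 fold changes were -0.038 (SE 0.16) and 0.25 (SE 0.14).

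Agt, for the peptide precursor angiotensinogen, was at 57.6, 51.4 and 52.0 CPM in WT 1 to 3 and 13.6, 50.2 and 58.8 CPM in KO 1 to 3. KO 1 stood apart, while the other 5 libraries lay between 50.2 and 58.8 CPM. The log2 fold change was -0.39 (SE 0.48) with KO 1 and 0.021 without it. Itih3, a gene for a matrix-binding inhibitor chain, was at 60.6, 27.6 and 45.5 CPM in WT 1 to 3 and 33.5, 58.3 and 74.0 CPM in KO 1 to 3. Itih3 and Slc6a11 shared their extremes, with WT 2 lowest and KO 3 highest in both.

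The neurotensin receptor gene Ntsr2 was at 98.8, 115 and 142 CPM in WT 1 to 3 and 132, 163 and 132 CPM in KO 1 to 3. F3, for tissue factor, was at 57.6, 54.5 and 66.4 CPM in WT 1 to 3 and 54.8, 63.9 and 70.2 CPM in KO 1 to 3. Fgfbp3, for an FGF-binding protein and the scarcest astrocyte function gene per length, was at 6.06, 5.46 and 6.32 CPM in WT 1 to 3 and 7.01, 4.49 and 5.40 CPM in KO 1 to 3. None of these 3 separated the groups. Their log2 fold changes were 0.27, 0.081 and -0.079, with adjusted p of 0.669 or more.

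The metallothionein genes encode small cysteine-rich proteins that bind zinc and copper. Mt3, Mt2 and Mt1 lie side by side on chromosome 8, and Mt3 is the form made mainly in brain. The 250 bases before the RefSeq start (GRCm38.p6, plus strand) are shown because these neighbours varied in step. Capitals mark the core of the metal response element, searched on both strands as TGCACNC and TGCGCNC, and no match overlaps another.
Mt1, chr8:94178839-94179088: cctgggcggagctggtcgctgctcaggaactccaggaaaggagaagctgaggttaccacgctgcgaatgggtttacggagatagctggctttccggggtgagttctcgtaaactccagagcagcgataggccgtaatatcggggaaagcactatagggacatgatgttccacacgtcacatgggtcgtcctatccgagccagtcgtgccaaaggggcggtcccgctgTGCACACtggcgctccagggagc
Mt2, chr8:94172368-94172617: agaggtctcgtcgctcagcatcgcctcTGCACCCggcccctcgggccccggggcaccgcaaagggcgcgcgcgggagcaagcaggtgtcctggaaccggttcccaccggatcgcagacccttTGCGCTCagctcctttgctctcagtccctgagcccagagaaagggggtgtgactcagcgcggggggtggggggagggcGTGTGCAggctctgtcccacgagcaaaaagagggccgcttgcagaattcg
Mt3, chr8:94152357-94152606: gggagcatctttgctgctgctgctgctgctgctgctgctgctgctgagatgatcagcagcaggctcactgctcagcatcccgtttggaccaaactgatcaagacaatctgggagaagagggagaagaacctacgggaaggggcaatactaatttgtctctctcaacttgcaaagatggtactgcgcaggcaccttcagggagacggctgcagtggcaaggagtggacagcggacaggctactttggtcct

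The window of Mt2 held 3 matches, that of Mt1 held 1 and that of Mt3 held 0. Of 32851 windows of this length in the RefSeq table, 21.4% held at least 1 match and 1.26% held 3 or more. Of the 44 genes, 38 had such a window and 9 of these held a match. Most of the Mt1 window lies inside the longest RefSeq model of that gene, which starts further upstream. Bases beyond either end of a window were not searched. The match counts thus depend on the start used and do not rank the 3 promoters by their elements. A match is a description of letters, and their absence says nothing of the factor that reads the element.

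The 3 genes ranked the 6 libraries in the same order, KO 2 highest, then KO 1, WT 1, WT 3, KO 3 and WT 2. Mt1 was at 292, 208 and 261 CPM in WT 1 to 3 and 317, 333 and 225 CPM in KO 1 to 3. Mt2 was at 148, 105 and 146 CPM in WT 1 to 3 and 172, 186 and 131 CPM in KO 1 to 3. Mt3 was at 262, 187 and 254 CPM in WT 1 to 3 and 291, 298 and 219 CPM in KO 1 to 3. The ratio of Mt1 to Mt3 in FPKM stayed between 1.01 and 1.11 in the 6 libraries and that of Mt2 to Mt1 between 0.495 and 0.569, so the genes varied in step within both groups. Their log2 fold changes were 0.20 (SE 0.20), 0.29 (SE 0.19) and 0.20 (SE 0.18), all smaller than the range within either group. Mt1 and Mt2 are close copies, and how the authors' counting divided reads between them is not given in the sources used here.

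**Figure D4:**
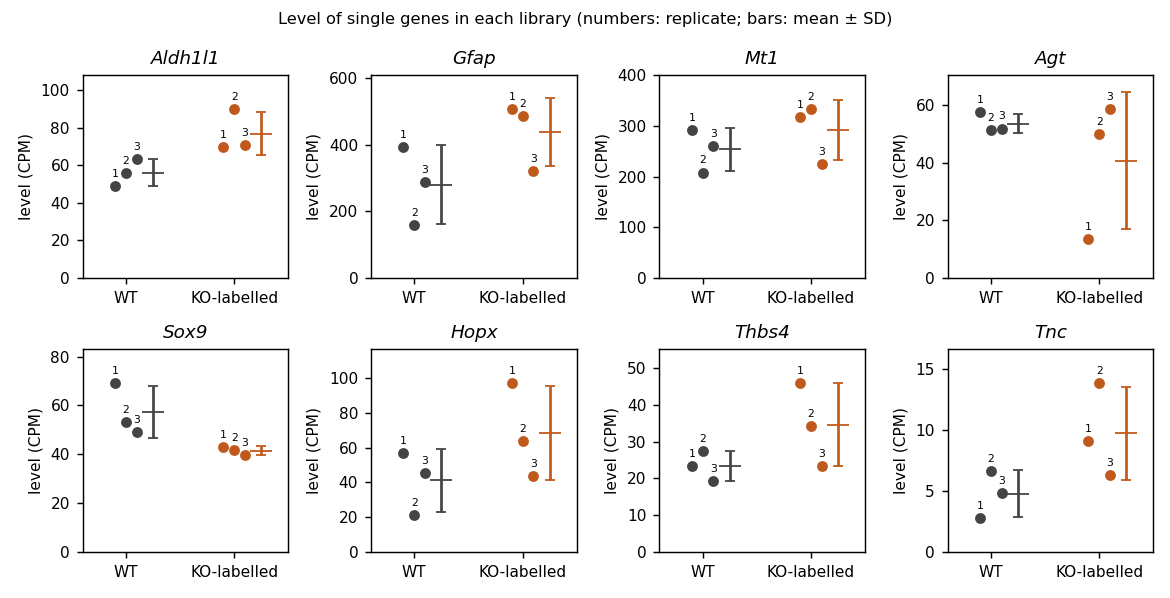
Level in CPM of 4 astrocyte function genes (top) and 4 stem cell genes (bottom) in each library; points are libraries numbered by replicate, and bars the mean ± SD of 3. Groups are apart for Aldh1l1 and Sox9 only, Agt has a single low library (KO 1, at 13.6 CPM), and Gfap and Hopx have their lowest value in WT 2.

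Among the 7 stem cell transcription factor genes 4 log2 fold changes were positive and 3 negative. Sox9, an SRY-box factor of stem cells, astrocytes and ependymal cells (NCBI gene 20682, chr11:112782210-112787757 in GRCm38), was at 69.2, 53.0 and 49.1 CPM in WT 1 to 3 and 43.1, 41.8 and 39.6 CPM in KO 1 to 3. Every KO-labelled library lay below every WT library, and the means were 57.1 ± 10.6 CPM for WT and 41.5 ± 1.73 CPM for KO-labelled (SD, n = 3 in each group). The log2 fold change was -0.46 (SE 0.14), with an unadjusted p of 0.0158 and an adjusted p of 0.415 in edgeR, and -0.30 without WT 1, the highest library. The summed level of 20 ependymal markers was 490.5, 355 and 322 CPM in WT 1 to 3 and 219, 213 and 166 CPM in KO 1 to 3. These libraries stand in the same order for Sox9 and for the ependymal sum, from WT 1 down to KO 3, and the part of ependymal cells in the Sox9 values was not tested.

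Sox2, the factor that maintains neural stem cells, was at 89.4, 55.3 and 75.2 CPM in WT 1 to 3 and 63.9, 61.6 and 63.9 CPM in KO 1 to 3. The 3 KO-labelled values lay within 1.04 times of each other, between the WT extremes. Nr2e1, the orphan receptor that adult neural stem cells need to renew themselves, was at 19.4, 22.8 and 23.2 CPM in WT 1 to 3 and 25.6, 21.8 and 19.0 CPM in KO 1 to 3. It had a log2 fold change of 0.023 (SE 0.14), the smallest in size among the stem cell genes. Sox2 and Nr2e1 both overlapped between groups.

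The nuclear factor I genes take part in the switch of progenitors to astrocytes and in stem cell quiescence. Nfia was at 76.8, 61.9 and 69.5 CPM in WT 1 to 3 and 85.2, 76.8 and 61.4 CPM in KO 1 to 3. Nfib was at 87.8, 65.0 and 81.2 CPM in WT 1 to 3 and 114, 91.3 and 70.9 CPM in KO 1 to 3. Nfix was at 249, 196 and 262 CPM in WT 1 to 3 and 325, 209 and 157 CPM in KO 1 to 3. Each was highest in KO 1, and KO 3 was the lowest library for Nfia and Nfix. Within the KO-labelled libraries Nfix differed by 2.06 times, against 1.34 times within WT, around nearly equal means.

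Hopx encodes a homeodomain protein without DNA binding that marks quiescent stem cells. It was at 56.7, 21.2 and 45.4 CPM in WT 1 to 3 and 97.2, 64.0 and 43.7 CPM in KO 1 to 3. WT 2 was lowest and KO 1 highest, with the other 4 libraries between 43.7 and 64.0 CPM. The log2 fold change was 0.73 (SE 0.42), 0.41 without WT 2 and 0.39 without KO 1. Its library order was the same as that of Nfib.

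All 4 genes for filaments and cytosolic proteins of stem cells had positive log2 fold changes, with adjusted p between 0.768 and 0.918. Vim, for vimentin, was at 77.6, 60.9 and 75.8 CPM in WT 1 to 3 and 80.7, 96.8 and 52.4 CPM in KO 1 to 3. Nes, for nestin, was at 13.4, 23.6 and 19.0 CPM in WT 1 to 3 and 22.4, 26.6 and 18.3 CPM in KO 1 to 3. Vim, Nes and S100a6 were each highest in KO 2. The fatty acid binding protein gene Fabp7, a radial glia and astrocyte gene, was at 28.5, 11.04 and 29.6 CPM in WT 1 to 3 and 32.9, 25.9 and 32.6 CPM in KO 1 to 3. WT 2 was again the low library, and without it the log2 fold change of Fabp7 was 0.058 in place of 0.40. The calcium-binding protein gene S100a6, found in stem cells and ependyma, was at 5.36, 7.92 and 7.83 CPM in WT 1 to 3 and 7.36, 13.5 and 5.05 CPM in KO 1 to 3. Its log2 fold change was 0.30 (SE 0.38), and -0.18 without KO 2.

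Surface and matrix genes were evenly divided, with 3 positive and 3 negative log2 fold changes among 6. Tnc, for the matrix protein tenascin C of the niche (NCBI gene 21923, chr4:63959785-64047015 in GRCm38), had the largest log2 fold change of the 44. It was at 2.81, 6.66 and 4.87 CPM in WT 1 to 3 and 9.07, 13.9 and 6.28 CPM in KO 1 to 3. KO 3 lay below WT 2, so the groups overlapped. Its means were 4.78 ± 1.93 CPM for WT and 9.74 ± 3.84 CPM for KO-labelled (SD, n = 3 in each group), giving a log2 fold change of 1.03 (SE 0.40) with an unadjusted p of 0.0383 and an adjusted p of 0.519, and 0.69 without KO 2. The sum of 12 vascular smooth muscle, pericyte and fibroblast markers was also highest in KO 2, at 309, 348 and 348 CPM in WT 1 to 3 and 299, 574 and 332 CPM in KO 1 to 3. KO 2 was the highest library for 7 of the 12. The orders differed otherwise, as KO 1 was the lowest library for the sum but lay above every WT library for Tnc. The part of these cells in the Tnc values was not tested.

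Thbs4, for a thrombospondin made by SVZ astrocytes, was at 23.4, 27.4 and 19.2 CPM in WT 1 to 3 and 46.0, 34.4 and 23.4 CPM in KO 1 to 3. Only KO 1 and KO 2 lay above all WT libraries, and the log2 fold change of 0.57 (SE 0.26) was 0.31 without KO 1. Vcam1, an adhesion molecule gene of niche stem cells and also of vessels, was at 57.4, 64.7 and 38.4 CPM in WT 1 to 3 and 33.1, 40.4 and 41.5 CPM in KO 1 to 3. Its log2 fold change was -0.48 (SE 0.20), with an adjusted p of 0.554, and it was -0.34 without WT 2 and -0.67 without WT 3. In Vcam1 the lowest WT library, WT 3, lay inside the KO-labelled range.

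Prom1, for the surface protein prominin, was at 13.1, 20.4 and 14.9 CPM in WT 1 to 3 and 16.4, 15.6 and 12.5 CPM in KO 1 to 3. Cd9, a tetraspanin gene of stem cells, ependyma and oligodendrocytes, was at 109, 90.6 and 76.0 CPM in WT 1 to 3 and 95.0, 66.8 and 51.8 CPM in KO 1 to 3. Lrig1, for an inhibitor of the EGF receptor linked to quiescence, was at 40.3, 43.9 and 39.6 CPM in WT 1 to 3 and 34.9, 40.3 and 55.5 CPM in KO 1 to 3. Cd9 was lowest in KO 3 and highest in WT 1, as was the ependymal marker sum. The sum of 13 oligodendrocyte markers was also lowest in KO 3, but it was highest in KO 1. That sum was 14840, 14620 and 14530 CPM in WT 1 to 3 and 20460, 12100 and 8880 CPM in KO 1 to 3. The part of these cells in the Cd9 values was not tested. Prom1 and Lrig1 gave log2 fold changes of -0.12 and 0.078.

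Other genes of astrocytes and quiescent stem cells, listed from general knowledge, were read in the same fit. Of 40, none passed in edgeR (lowest adjusted p = 0.178), 24 had positive and 16 negative log2 fold changes, and the median was 0.086. Groups did not overlap in 6 with higher KO-labelled values (15.0%, against 8.00% of all genes) and in 3 with lower ones (7.50%, against 8.74%). The smallest p were those of Slco1c1, Slc39a12, Fgfr3, Mfge8 and Sfxn5. The organic anion and thyroxine transporter gene Slco1c1 was at 130.3, 142 and 91.5 CPM in WT 1 to 3 and 68.2, 58.1 and 54.0 CPM in KO 1 to 3, and was the only one of the 40 that DESeq2 called (adjusted p = 0.000358, against 0.178 in edgeR). Slco1c1 is also active in brain vessels and the choroid plexus. The zinc transporter gene Slc39a12 was at 94.9, 76.2 and 72.8 CPM in WT 1 to 3 and 51.2, 50.6 and 63.0 CPM in KO 1 to 3. Fgfr3, for an FGF receptor of astrocytes, was at 74.6, 82.8 and 94.8 CPM in WT 1 to 3 and 104, 103 and 112 CPM in KO 1 to 3, with log2 fold changes of 0.34 here, 0.46 in Mfge8 and 0.32 in Sfxn5.

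Genes that astrocytes switch on in injury were mostly scarce, and 4 of 19 did not pass the filter on low counts. Of the 15 tested, 11 had positive log2 fold changes, none passed, and the list summed to 223, 154 and 188 CPM in WT 1 to 3 and 178, 354 and 156 CPM in KO 1 to 3. KO 2 stood above the other 5 libraries. Of the single genes its excess was largest for Emp1, a membrane protein gene, at 5.20, 9.06 and 5.63 CPM in WT 1 to 3 and 3.71, 73.2 and 4.34 CPM in KO 1 to 3. The complement gene C3 was at 14.0, 3.90 and 6.61 CPM in WT 1 to 3 and 2.18, 3.34 and 2.23 CPM in KO 1 to 3, with a log2 fold change of -1.66 (SE 0.49); DESeq2 called it (adjusted p = 0.0493), and edgeR did not (adjusted p = 0.391). C3 is also made by choroid plexus cells and microglia.

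Genes of activated stem cells and their progeny had small median log2 fold changes. For activated stem cells and transit-amplifying progenitors, 3 of 14 log2 fold changes were positive, the median was -0.073 and the sum was 394, 364 and 352 CPM in WT 1 to 3 and 345, 366 and 335 CPM in KO 1 to 3. Neuroblast genes had a median of 0.066 over 11 tested, of which 1 lay apart with higher and 1 with lower KO-labelled values (9.09% each way, against 8.00% and 8.74% of all genes), and Dcx was at 40.4, 39.97 and 47.2 CPM in WT 1 to 3 and 34.4, 30.4 and 47.0 CPM in KO 1 to 3. Neither list had a gene past the test.

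**Figure D5:**
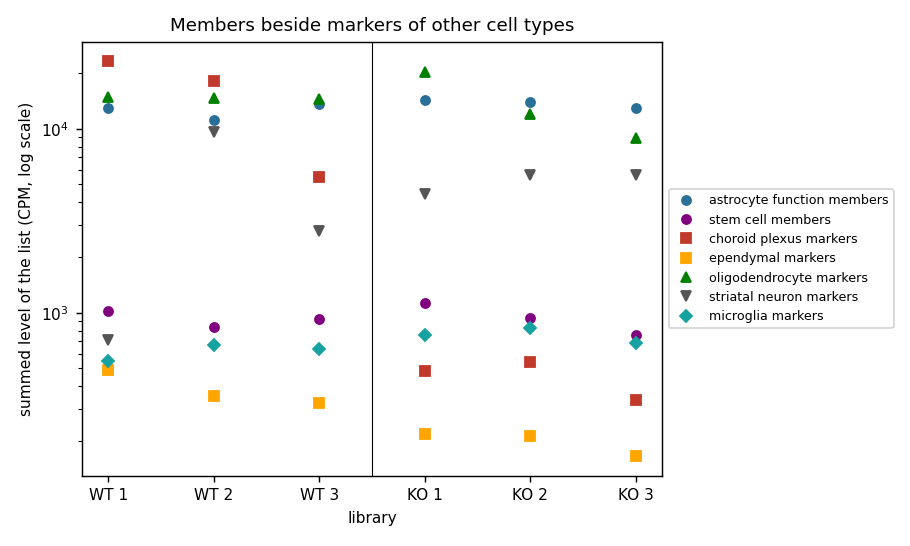
Summed level in CPM (log axis) of the 2 classes of the 44 genes and of marker lists of other cell types in each library. The astrocyte function sum stays between 11140 and 14300 CPM and the stem cell sum between 755 and 1131 CPM, while choroid plexus markers range from 335 to 23250 CPM and striatal neuron markers from 711 to 9627 CPM.

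Libraries also differed in markers of other cell types. The summed level of 20 choroid plexus markers was 23250, 18140 and 5448 CPM in WT 1 to 3 and 482, 537 and 335 CPM in KO 1 to 3, and all 20 genes had separate groups with lower KO-labelled values (100%, against 8.74% of all genes). Striatal neuron markers summed to 711, 9627 and 2770 CPM in WT 1 to 3 and 4396, 5642 and 5601 CPM in KO 1 to 3, with WT 2 highest and WT 1 lowest. The WT library with the highest striatal marker sum was thus also the one with the lowest level of most astrocyte function genes. Across all libraries there was no such inverse order. KO 2 had the next highest striatal sum (5642 CPM) and the highest mean log2 level of the astrocyte function genes (8.01). WT 1 had the lowest striatal sum (711 CPM), but its astrocyte mean of 7.91 lay below those of WT 3, KO 2 and KO 3. Microglia markers summed to 548, 666 and 633 CPM in WT 1 to 3 and 756, 827 and 684 CPM in KO 1 to 3. Of these 15 markers, 6 had separate groups with higher KO-labelled values (40.0%, against 8.00% of all genes). None of these lists had a gene past the edgeR test. DESeq2 called all 20 choroid plexus markers and 11 of the 20 ependymal markers lower, and none of the microglia and striatal lists. Over all genes with an adjusted p, DESeq2 called 1.86%, both directions together. Among the 15126 genes tested in edgeR, the DESeq2 calls were 6 higher and 293 lower. Of the 20 ependymal markers, 14 had separate groups with lower KO-labelled values (70.0%, against 8.74% of all genes). The part of these cells in the values of the 44 genes was not tested. With the choroid plexus list left out of the scaling, the median log2 fold change was 0.18 for the astrocyte function genes and 0.10 for the stem cell genes, as with it. That setting changes the scaling only and takes no RNA of those cells out of the 44 genes, so it does not bear on their part.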

How the data were processed

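Libraries from total RNA of the SVZ were sequenced as 50 bp paired ends, per the labels' protocols. The deposited table gives estimated counts and FPKM for 61481 RefSeq transcripts per library, as the authors computed them. Per the submitters' processing notes, the genome build was mm10 and the tools included limma 3.40.6. The aligner, the counter and the annotation release were not given in the sources used here.

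For each NCBI gene number the transcripts' estimated counts were added up and rounded, giving 18614 genes, of which 18489 had a symbol in the RefSeq table of GRCm38.p6 (the sequence of mm10); the other 125 held at most 0.14% of a library. The test was edgeR's robust quasi-likelihood F test (two-sided; version 4.0.16, R 4.3.3), with the group as its single term, after filterByExpr at a minimum count of 10 and TMM scaling. P-values were adjusted by Benjamini-Hochberg over 15126 genes, with a threshold of 0.05. DESeq2 1.42.0 and limma-voom (limma 3.58.1) were alternatives, with other scalings, filters, a replicate block and single libraries left out. Libraries of a group differed beyond sampling noise (chi-square per degree of freedom of at least 22.6). The procedure was run on simulated counts with planted changes. Those counts held no shift in cell content between libraries, so the run does not show how the tests perform on these libraries.

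The genes and lists were chosen with earlier results of these data known. All 44 members are given; of other astrocyte genes, up to 5 with the smallest p are named, and of the injury and other lists, genes chosen after their values were seen (Emp1, C3, Dcx). Transcript values are the authors' estimates. Each standard error is the log2 fold change divided by the square root of F. The sequences of the Gfap forms are not reported here.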

Additional observations from a re-analysis of the deposited data

How the results depend on the processing

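None of the 44 genes was called in other settings: with upper quartile scaling, DESeq2 size factors, TMM without the choroid plexus list, no filter, a filter at 5 CPM, DESeq2, limma-voom, the replicate block, and each library left out in turn, the count was 0 in each. KO 1 alone against WT also gave 0, with 0 of 15589 genes called and no member under an adjusted p of 0.827; its lone KO library is assumed to vary like the WT libraries, so this 0 says nothing about stability. Over all genes DESeq2 called 311 and edgeR without WT 3 called 137, against 0 in edgeR with 6 libraries. The replicate block gave medians of 0.20 (astrocyte) and 0.066 (stem cell) and changed no call. Same-numbered libraries did not deviate together (correlations of -0.16, -0.067 and -0.037). With 3 libraries per group this check cannot tell whether the numbers pair the samples. Over the 15 settings, 23 of the 44 genes kept their direction (18 positive, 5 negative). The other 21 changed it in at least 1, all under a library left out or KO 1 alone. With KO 1 alone the log2 fold changes of 11 genes turned: Slc6a11 -0.37, Hepacam 0.25, Ndrg2 -0.001, Clu 0.079, Itih3 -0.41, F3 -0.12, Fgfbp3 0.24, Nfix 0.46, Prom1 0.028, Cd9 0.050, Lrig1 -0.24. With single libraries left out those of 18 genes turned: Slc1a2 between -0.010 and 0.28, Slc1a3 between -0.33 and 0.053, Slc6a11 between -0.14 and 0.41, Gja1 between -0.063 and 0.21, Mlc1 between -0.033 and 0.31, Hepacam between -0.14 and 0.089, Atp1b2 between -0.17 and 0.066, Clu between -0.11 and 0.082, Agt between -0.75 and 0.021, F3 between -0.005 and 0.17, Fgfbp3 between -0.27 and 0.061, Nr2e1 between -0.095 and 0.12, Nfia between -0.007 and 0.22, Nfix between -0.36 and 0.18, Vim between -0.10 and 0.31, S100a6 between -0.18 and 0.57, Prom1 between -0.25 and 0.075, Lrig1 between -0.14 and 0.21. The KO-labelled minus WT difference of the class contrast was between -0.12 (without the genes shared with ependymal or choroid plexus cells) and 0.12 (without KO 1), and moved from 0.016 by less than the spread between libraries in each. At 3 libraries per group, changes of the size seen here were mostly within the spread between libraries.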

Other observations

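Among 12 markers of vessel wall cells and fibroblasts, KO 2 was the highest library for 7, WT 1 for 2 (Dcn and Lum), WT 2 for 2 (Abcc9 and Rgs5) and KO 1 for 1 (Kcnj8). Of the 7, Acta2, the smooth muscle actin gene, was at 8.71, 19.7 and 24.5 CPM in WT 1 to 3 and 18.9, 74.5 and 29.5 CPM in KO 1 to 3, Tagln, another smooth muscle gene, at 2.54, 8.70 and 12.2 CPM in WT 1 to 3 and 6.72, 42.5 and 15.0 CPM in KO 1 to 3, and the collagen gene Col1a1 at 19.1, 13.6 and 17.2 CPM in WT 1 to 3 and 15.7, 43.4 and 18.9 CPM in KO 1 to 3. The pericyte gene Rgs5, by contrast, was at 84.3, 116 and 99.1 CPM in WT 1 to 3 and 95.3, 99.6 and 99.9 CPM in KO 1 to 3. KO 2 was above the other 5 libraries for Acta2, Tagln and Col1a1, as it was for Emp1, Tnc, Vim, Nes and S100a6. These genes were picked after their values were seen and were not tested as a set.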
